A study of Homo sapiens with 6 samples.

Results

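TIAM1 and 9 further genes of Rac activation were followed in MM.1S cells, an established human myeloma line, that is, a tumour line of plasma cells, which secrete antibodies. The genes were taken by symbol: the exchange factors TIAM1, VAV1, VAV2, VAV3, DOCK2, DOCK8 and PREX1, the adaptor ELMO1, and the GTPases RAC1 and RAC2. All 10 were found, among 33095 genes in the authors' deposited tables, and all 10 carried an adjusted p in both comparisons. The cells had received, by lentivirus, shRNA 1 or shRNA 2 against IRF3, a transcription factor of the antiviral interferon response, or a scramble control hairpin. Each arm had 2 libraries of poly(A)-selected RNA, 6 libraries in all, and every arm shares the parental line, the viral vector and a hairpin of some kind. Whether both libraries of an arm stem from different cultures is not stated in the labels. All SEs and p-values therefore reflect the variation among these 6 libraries alone, and that variation may be technical. The tables give, per gene, 1 mean over the fitted libraries and 1 log2 fold change per comparison, and single libraries are not listed, which leaves their depth unknown.

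Rac proteins are small GTPases that switch between a GDP-bound resting form and a GTP-bound active form. Exchange factors (GEFs) load them with GTP, GTPase-activating proteins (GAPs) and dissociation inhibitors turn them off, and active Rac drives branched actin through the WAVE and Arp2/3 complexes, PAK kinases and, in leukocytes, the NADPH oxidase. In cells of the B lineage these factors serve adhesion, migration towards chemokines and signalling from antigen receptors and integrins.

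The targeted mRNA was checked first. IRF3 had a rebuilt mean of 974 normalised counts with shRNA 1 and 2476 with shRNA 2, against 2809 with scramble. A rebuilt mean is the level of an arm solved from the deposited overall mean and both fold changes. In the authors' deposited tables its log2 fold change was -1.53 ± 0.10 (SE, 2 libraries per arm) with shRNA 1 and -0.18 ± 0.10 with shRNA 2. The ratio to scramble was 0.347 with shRNA 1 and 0.881 with shRNA 2, the second with a 95% interval of 0.768 to 1.01. IRF3 was called lower by the authors' DESeq2 test (adjusted p of 8.45e-46) with shRNA 1 and was not called with shRNA 2 (adjusted p of 0.181), so that every direction below for shRNA 2 is that of libraries labelled shRNA 2 in which a fall of IRF3 was not detected. The 9 plasma cell markers had deposited means of 1665 to 31453 normalised counts. The 9 matched other markers were listed for T cells, monocytes, B cells, epithelium, fibroblasts, endothelium and red cells. Their means ran from 3.82 (MS4A1, listed for B cells) to 210 (PECAM1, listed for endothelium). All libraries were labelled MM.1S, and reads of such a marker do not show that its cell type was present. The summed rebuilt means of the plasma cell markers were 105347 with shRNA 1 and 94531 with shRNA 2, against 143274 with scramble. Those of the other markers were 416 with shRNA 1 and 336 with shRNA 2, against 730 with scramble, of which PECAM1 made up 74.9, 116 and 438. Not every plasma cell marker fell with its sum. SDC1 was called higher with shRNA 1 (log2 fold change 0.28 ± 0.09, SE) and CD38 with shRNA 2 (0.89 ± 0.15), in the authors' deposited tables. Of the 9, 6 were called lower with shRNA 1 and 7 with shRNA 2, against 14.8% and 18.1% of all genes tested. The part of either list in the results below was not tested. In bulk RNA, fewer cells of a kind and less RNA per cell cannot be told apart.

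With shRNA 1, 3 of the 10 genes were called lower (TIAM1, VAV2 and DOCK8) and 2 higher (ELMO1 and RAC2) in the authors' deposited table, where the threshold taken was an adjusted p under 0.05. Over all 14488 genes tested, 24.6% were called with shRNA 1, 14.8% lower and 9.80% higher. With shRNA 2, 5 of the 10 were called lower (TIAM1, VAV2, VAV3, DOCK8 and RAC1) and 0 higher in the authors' deposited table. Over all 17054 genes tested, 29.0% were called with shRNA 2, 18.1% lower and 10.9% higher. The median log2 fold change of the 10 genes was -0.02 with shRNA 1 and -0.43 with shRNA 2, computed from the authors' deposited tables, where all genes tested had medians of -0.03 and -0.0026. The 10 genes were selected on their fold changes and calls in both tables, TIAM1 leading them, so these counts and the values that follow describe the genes and carry no test. Both comparisons also share the scramble libraries. Between the hairpins, 19.6% of 17054 genes differed by a two-sided z test with Benjamini-Hochberg adjustment. The SE of that test counts the variance of the shared scramble libraries though scramble cancels in the difference, and with that variance taken out 33.2% differed. For the 10 genes the ratio of shRNA 2 to shRNA 1 is given below with its 95% interval and no test. That interval, made with the wider SE, left out 1 for VAV3, DOCK8, ELMO1, RAC1 and RAC2, and with the narrower SE for VAV2 as well. It is not adjusted for the number of genes, whereas the shares of 19.6% and 33.2% are. How many of all genes had an interval without 1 was not counted, so these genes cannot be set beside those shares.

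**Figure D1:**
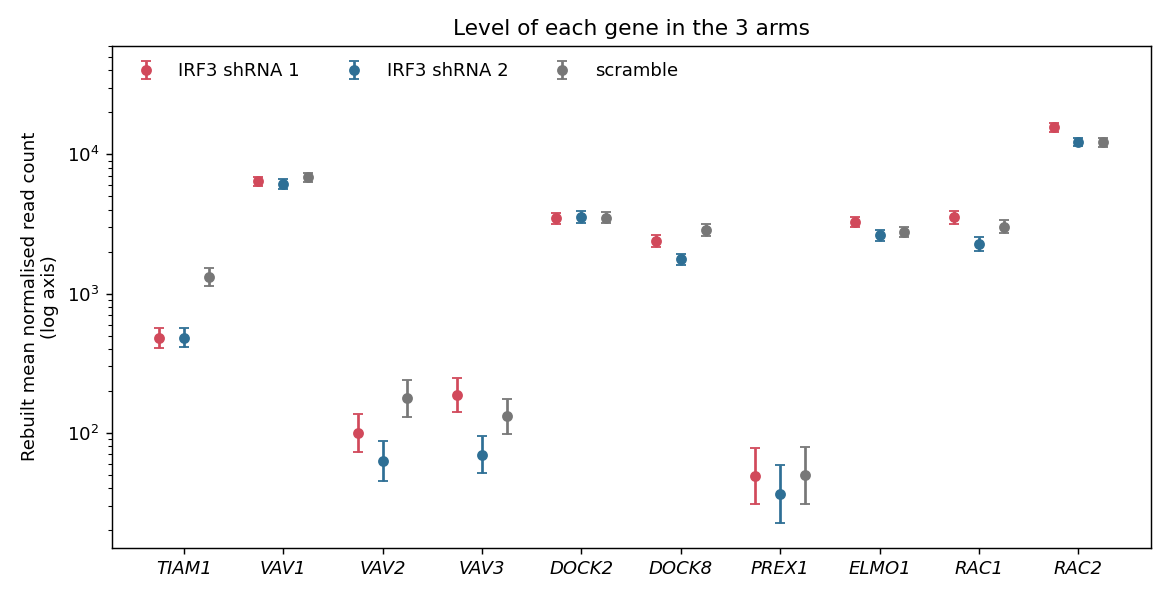
Rebuilt mean normalised read count (log axis) of each gene with IRF3 shRNA 1, IRF3 shRNA 2 and scramble; bars are 95% intervals from the deposited SEs, and counts are not divided by gene length. TIAM1 sits at 481 and 482 with the hairpins against IRF3 and at 1309 with scramble, while DOCK2 and VAV1 lie close together in all 3 arms.

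TIAM1 was lower by nearly the same amount with either hairpin. TIAM1 (ENSG00000156299, chromosome 21, 31118416 to 31559977, minus strand, GRCh38) encodes a GEF for RAC1 that also binds active RAS, and spreads 9216 bases of exon over 442 kb. Its rebuilt mean was 481 normalised counts with shRNA 1 (95% interval 410 to 564) and 482 with shRNA 2 (411 to 565), against 1309 with scramble (1125 to 1522). The levels with the 2 hairpins against IRF3 cannot be told apart, and neither interval reaches that of scramble. In the authors' deposited tables the log2 fold change was -1.44 ± 0.16 (SE) with shRNA 1 and -1.44 ± 0.16 with shRNA 2. These are ratios to scramble of 0.368 with shRNA 1 (95% interval 0.295 to 0.458) and 0.368 with shRNA 2 (0.296 to 0.459). The level with shRNA 2 was 1.00 times that with shRNA 1, with an interval of 0.734 to 1.37, in libraries in which IRF3 itself stood at 0.881 and 0.347 times scramble. Among the 11398 protein-coding genes whose mean reached 50, 0.649% had a lower log2 fold change than TIAM1 with shRNA 1 and 3.55% with shRNA 2.

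The RefSeq window around the TIAM1 start is shown because TIAM1 had the largest fall of the 10 genes with shRNA 1 and lay next to VAV2 with shRNA 2. It runs from 250 bases before the start to 50 bases after it (GRCh38.p14, chr21:31559038-31559337, minus strand, sequence from RefSeq), with CpG pairs in capitals.
TIAM1: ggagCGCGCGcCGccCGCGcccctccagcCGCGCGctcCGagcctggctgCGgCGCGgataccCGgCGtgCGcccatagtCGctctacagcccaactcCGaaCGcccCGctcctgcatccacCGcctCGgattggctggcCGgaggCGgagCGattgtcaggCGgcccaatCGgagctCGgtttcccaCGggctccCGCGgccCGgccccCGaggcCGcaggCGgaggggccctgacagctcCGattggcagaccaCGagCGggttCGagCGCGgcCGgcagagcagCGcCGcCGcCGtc
The window was 76.0% G or C and held 46 CpG pairs, above 97.1% of 35116 such windows, whose medians were 58.7% and 14 pairs. It was searched on both strands for the core of the interferon-stimulated response element (GAAANNGAAA), which IRF proteins bind, for the ETS-IRF composite element (GGAANNGAAA), which IRF4 binds together with PU.1 or a relative, and for a shorter IRF motif (AANNGAAA), whose letters the core contains. No copy of any of the 3 motifs was found in this window. The whole window lies inside the annotated gene, which reaches to base 31559977. From which start the TIAM1 reads came is not known. Of all windows, 3.57% held the core, 2.82% the composite and 22.8% the shorter motif. Windows were given for 8 of the 10 genes, 12 windows in all, and RAC1 and RAC2 had none. Across these 12, the core occurred in 1, the composite in 0 and the shorter motif in 4, which is a description of letters only. Each window with a motif belonged to ELMO1, which has several windows, or to VAV3.

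The 3 VAV genes, GEFs that are switched on by tyrosine phosphorylation, divided into 1 abundant gene with small changes and 2 scarce genes with large ones. VAV1 (ENSG00000141968, chromosome 19, 6772714 to 6857366, plus strand) is the form of blood cells. Its rebuilt mean was 6409 normalised counts with shRNA 1 (95% interval 5940 to 6915) and 6116 with shRNA 2 (5668 to 6599), against 6827 with scramble (6328 to 7365). All 3 intervals overlap. The log2 fold changes of VAV1 in the authors' deposited tables were -0.09 ± 0.08 (SE) with shRNA 1 and -0.16 ± 0.08 with shRNA 2, and it was not called in either. The intervals of its ratio, 0.843 to 1.05 with shRNA 1 and 0.805 to 0.997 with shRNA 2, leave out a fall of the size of TIAM1's.

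VAV2 (ENSG00000160293, chromosome 9, 133761894 to 133992604, minus strand), a more widely expressed relative, was lower with both hairpins. For VAV2 the rebuilt mean was 99.7 normalised counts with shRNA 1 (95% interval 72.9 to 136) and 63.1 with shRNA 2 (45.3 to 87.8), against 177 with scramble (131 to 238). The interval with shRNA 1 overlaps that of scramble at its edge and the interval with shRNA 2 does not. In the authors' deposited tables VAV2 had log2 fold changes of -0.82 ± 0.32 (SE) with shRNA 1 and -1.49 ± 0.33 with shRNA 2, called lower in both. These correspond to ratios of 0.565 with shRNA 1 (0.365 to 0.873) and 0.357 with shRNA 2 (0.229 to 0.557). The level with shRNA 2 was 0.632 times that with shRNA 1, with an interval of 0.339 to 1.18 that narrowed to 0.401 to 0.997 without the shared scramble variance, so whether VAV2 differed between the hairpins depends on the SE used.

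VAV3 (ENSG00000134215, chromosome 1, 107571160 to 107965144, minus strand) went apart between the hairpins. VAV3 had a rebuilt mean of 186 normalised counts with shRNA 1 (95% interval 141 to 247) and 69.9 with shRNA 2 (51.2 to 95.5), against 132 with scramble (98.4 to 176). Scramble lay between the other arms, overlapping shRNA 1 and clear of shRNA 2. VAV3 had log2 fold changes of 0.50 ± 0.30 (SE) with shRNA 1, not called, and -0.91 ± 0.31 with shRNA 2, called lower, in the authors' deposited tables. The level with shRNA 2 was 0.375 times that with shRNA 1, with an interval of 0.208 to 0.675.

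The RefSeq window of VAV3 is shown as the contrast to TIAM1 (GRCh38.p14, chr1:107688450-107688749, minus strand), with the 2 copies of the shorter IRF motif in capitals, 1 on each strand.
VAV3: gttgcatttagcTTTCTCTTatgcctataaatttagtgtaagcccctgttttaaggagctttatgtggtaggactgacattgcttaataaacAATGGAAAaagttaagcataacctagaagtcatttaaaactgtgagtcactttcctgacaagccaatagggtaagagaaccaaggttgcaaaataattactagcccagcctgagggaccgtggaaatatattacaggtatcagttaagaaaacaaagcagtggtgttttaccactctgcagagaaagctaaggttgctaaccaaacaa
It lies around a start inside the gene, was 38.0% G or C, held 1 CpG pair, and had neither the core nor the composite. The data do not say from which start the VAV3 reads came.

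**Figure D2:**
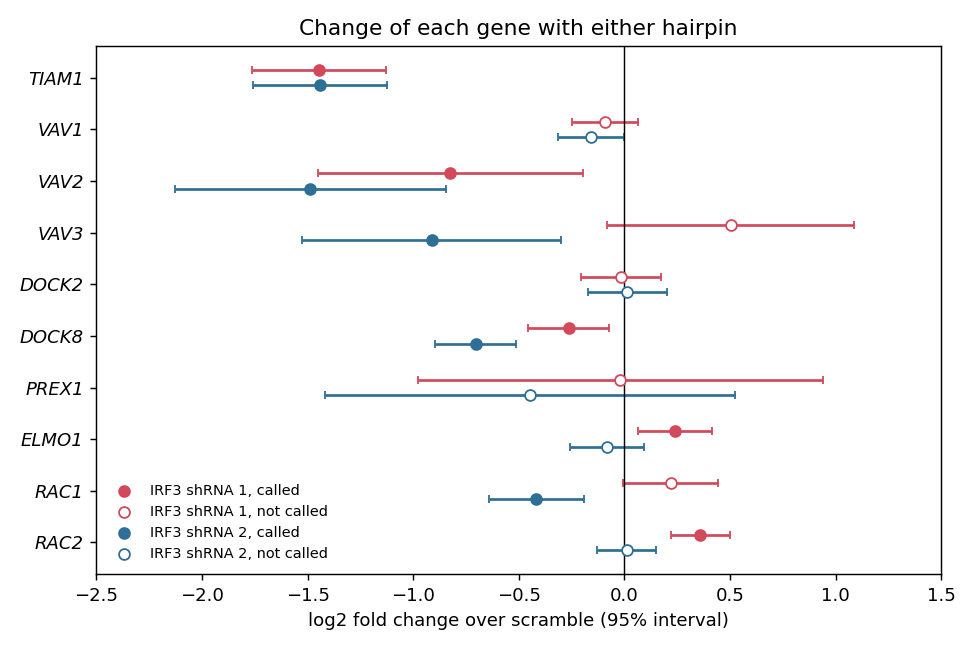
Log2 fold change over scramble (x axis) of each gene with IRF3 shRNA 1 and IRF3 shRNA 2; points are the authors' deposited values, bars 95% intervals, and filled points carry an adjusted p below 0.05. TIAM1 has both points at -1.44, whereas the pairs of VAV3 and RAC1 fall on opposite sides of 0.

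Of the 2 DOCK genes, large GEFs of another fold, DOCK8 was lower and DOCK2 was close to scramble. DOCK8 (ENSG00000107099, chromosome 9, 214854 to 465259, plus strand) acts on CDC42, a GTPase related to Rac, rather than on Rac itself, and is needed for lymphocyte migration through tissue. For DOCK8 the rebuilt mean was 2387 normalised counts with shRNA 1 (95% interval 2173 to 2622) and 1759 with shRNA 2 (1599 to 1935), against 2865 with scramble (2610 to 3145). The interval with shRNA 2 is clear of both others. The authors' deposited tables give DOCK8 log2 fold changes of -0.26 ± 0.10 (SE) with shRNA 1 and -0.70 ± 0.10 with shRNA 2, called lower in both. The ratio was 0.833 with shRNA 1 (0.730 to 0.951) and 0.614 with shRNA 2 (0.537 to 0.702). With shRNA 2, DOCK8 stood at 0.737 times that with shRNA 1 (0.611 to 0.890).

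DOCK2 (ENSG00000134516, chromosome 5, 169637247 to 170083382, plus strand) is the main Rac GEF of lymphocyte migration. DOCK2 had a rebuilt mean of 3479 normalised counts with shRNA 1 (95% interval 3172 to 3814) and 3551 with shRNA 2 (3238 to 3893), against 3515 with scramble (3206 to 3855). The 3 intervals nearly coincide. DOCK2 had log2 fold changes of -0.02 ± 0.10 (SE) with shRNA 1 and 0.01 ± 0.10 with shRNA 2 in the authors' deposited tables, not called, and ratios within 0.869 to 1.13 and 0.887 to 1.15.

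ELMO1 (ENSG00000155849, chromosome 7, 36854361 to 37449249, minus strand), the adaptor that DOCK2 works with, was slightly higher with shRNA 1. For ELMO1 the rebuilt mean was 3267 normalised counts with shRNA 1 (95% interval 2999 to 3558) and 2616 with shRNA 2 (2400 to 2852), against 2766 with scramble (2538 to 3014). The interval with shRNA 1 just overlaps that of scramble and is clear of that of shRNA 2. In the authors' deposited tables the log2 fold change of ELMO1 was 0.24 ± 0.09 (SE) with shRNA 1, called higher, and -0.08 ± 0.09 with shRNA 2, not called. With shRNA 2, ELMO1 stood at 0.801 times that with shRNA 1 (0.675 to 0.951).

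Of the 4 RefSeq windows of ELMO1, 1 held the response element core, the only 1 among the 12, and it is printed for that reason (GRCh38.p14, chr7:36985029-36985328, minus strand). The core lies on the other strand, its first printed base 40 bases before the start, in capitals.
ELMO1: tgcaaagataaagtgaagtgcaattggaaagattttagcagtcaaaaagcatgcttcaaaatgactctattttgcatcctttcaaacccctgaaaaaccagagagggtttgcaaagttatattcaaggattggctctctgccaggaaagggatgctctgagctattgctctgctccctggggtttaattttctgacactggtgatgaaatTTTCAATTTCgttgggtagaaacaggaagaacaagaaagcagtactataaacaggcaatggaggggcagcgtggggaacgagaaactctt
This window too belongs to a start inside the gene, and which start was used is not known from the tables.

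PREX1 (ENSG00000124126, chromosome 20, 48624252 to 48827883, minus strand), a Rac GEF activated by PIP3 and by G protein beta-gamma subunits, was close to the limit of what these libraries resolve. Its rebuilt mean was 49.0 normalised counts with shRNA 1 (95% interval 30.7 to 78.4) and 36.5 with shRNA 2 (22.5 to 59.1), against 49.6 with scramble (31.1 to 79.3). In the authors' deposited tables PREX1 had log2 fold changes of -0.02 ± 0.49 (SE) with shRNA 1 and -0.44 ± 0.50 with shRNA 2, not called. The ratio intervals, 0.508 to 1.92 with shRNA 1 and 0.375 to 1.44 with shRNA 2, are wide enough that a change of moderate size was not detectable at this depth. With shRNA 2 the interval of PREX1 overlaps that of TIAM1, 0.296 to 0.459.

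Of the GTPases, RAC2 was higher with shRNA 1 and RAC1 lower with shRNA 2. RAC2 (ENSG00000128340, chromosome 22, 37225261 to 37244448, minus strand), the form restricted to blood cells, had a rebuilt mean of 15618 normalised counts with shRNA 1 (95% interval 14583 to 16726) and 12273 with shRNA 2 (11457 to 13148), against 12173 with scramble (11363 to 13041). Only the interval of shRNA 1 stands clear. RAC2 had log2 fold changes of 0.36 ± 0.07 (SE) with shRNA 1, called higher, and 0.01 ± 0.07 with shRNA 2, not called, in the authors' deposited tables. The ratio with shRNA 1 was 1.28 (1.16 to 1.41). Relative to shRNA 1, the level with shRNA 2 was 0.786 (0.685 to 0.902).

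RAC1 (ENSG00000136238, chromosome 7, 6374523 to 6403977, plus strand) is found in nearly all cell types. Its rebuilt mean was 3523 normalised counts with shRNA 1 (95% interval 3157 to 3932) and 2268 with shRNA 2 (2029 to 2534), against 3028 with scramble (2712 to 3380). The level with shRNA 2 is clear of both others, and those of shRNA 1 and scramble overlap. In the authors' deposited tables RAC1 had log2 fold changes of 0.22 ± 0.11 (SE) with shRNA 1, not called, and -0.42 ± 0.12 with shRNA 2, called lower. With shRNA 2, RAC1 stood at 0.644 times that with shRNA 1 (0.516 to 0.802). Of the distinct 31-base words in annotated RAC1 transcripts, 14.8% also occur in transcripts of 10 other genes, chiefly the processed pseudogene RAC1P2, so its level is the least certain in this respect. For the other 9 genes that share was 0 to 6.37%, and for TIAM1 1.13%.

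Divided by exon length, RAC2 and VAV1 outweighed the rest. The deposited mean per kb of exon was 5274 normalised counts for RAC2, 1498 for VAV1, 944 for RAC1, 301 for ELMO1, 266 for DOCK2, 170 for DOCK8, 82.2 for TIAM1, 19.9 for VAV2, 17.8 for VAV3 and 6.09 for PREX1. RAC2 lay above 99.4% of 17237 protein-coding genes on this scale, VAV1 above 97.1% and TIAM1 above 54.1%. With the longest transcript as the length, VAV3 (25.9 per kb) passed VAV2 (22.2), and the order of the other 8 was kept. Among the 7 exchange factors, TIAM1 made up 2.57% of the summed level per kb with shRNA 1 and 2.76% with shRNA 2, against 6.29% with scramble. VAV1 made up 73.4% with shRNA 1 and 75.0% with shRNA 2, against 70.2% with scramble. RAC2 supplied 82.0% of the summed RAC1, RAC2 and RAC3 level per kb with shRNA 1 and 84.8% with shRNA 2, against 79.9% with scramble.

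**Figure D3:**
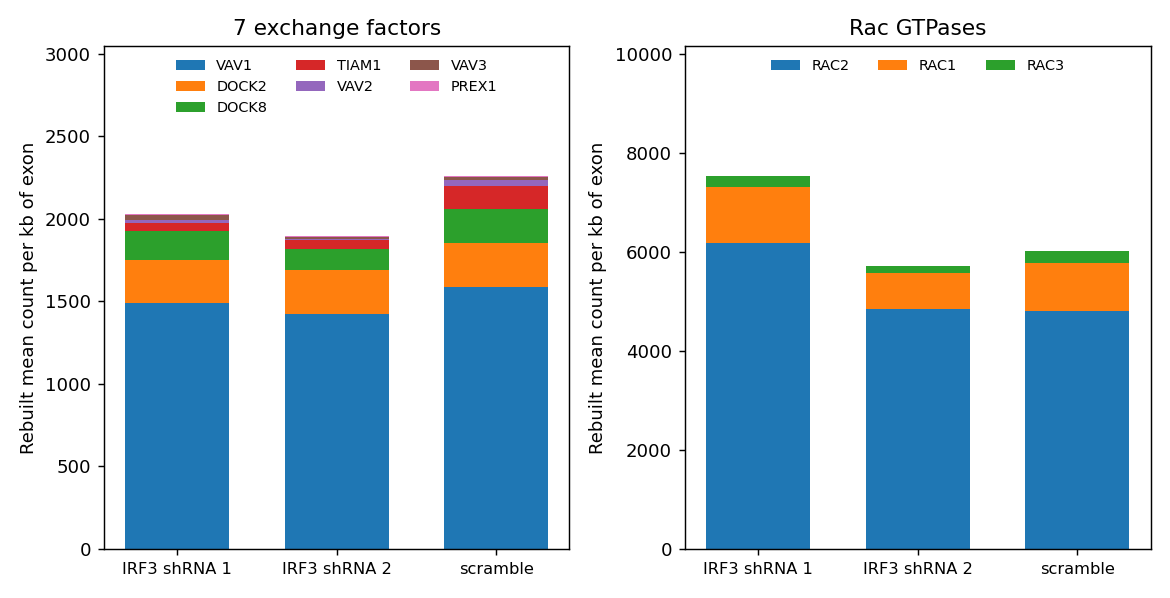
Rebuilt mean normalised count per kb of exon, stacked by gene, for the 7 exchange factors (left) and the 3 Rac GTPases (right) with IRF3 shRNA 1, IRF3 shRNA 2 and scramble. VAV1 fills 70.2% to 75.0% of the left columns, and the TIAM1 band is 2.57% and 2.76% with the hairpins against IRF3 and 6.29% with scramble.

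Overlap with exons of other genes was small. Exons of DOCK8 share 422 bases with C9orf66 on the opposite strand, which had a deposited mean of 13.5 normalised counts, and exons of ELMO1 share 86 bases with ELMO1-AS1, which had 0.311. No other gene in the tables shared exon bases with the 10. Whether reads were counted by strand is not stated in the labels.

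The genes most like TIAM1 were sought among 11229 protein-coding genes with a unique symbol and a mean of 50 or more, by the Euclidean distance between pairs of log2 fold changes, which rests on 3 arms. The closest was GCAT, a mitochondrial enzyme of threonine breakdown, at a distance of 0.07, with log2 fold changes of -1.52 ± 0.36 (SE) with shRNA 1 and -1.42 ± 0.35 with shRNA 2 in the authors' deposited tables. The intermediate filament gene SYNM followed at 0.09 (-1.36 ± 0.20 and -1.44 ± 0.20 with shRNA 1 and shRNA 2), and NIBAN1 at 0.13 (-1.53 ± 0.25 and -1.54 ± 0.25), in the same tables of the authors. PLEKHH2 stood at 0.17, FNIP2, a partner of folliculin, at 0.18 and SH3BGRL2 at 0.18. The SE of TIAM1 was 0.16 with either hairpin, and that of PLEKHH2 reached 0.49 with shRNA 2. The order of these 6 genes is therefore not resolved. FNIP2 was of like abundance to TIAM1, with rebuilt means of 451 with shRNA 1 and 524 with shRNA 2, against 1261 with scramble.

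The other activators of Rac or CDC42 were 30 further GEFs and ELMO adaptors, of which 24 were tested with shRNA 1 and 28 with shRNA 2. With shRNA 1, 4 fell and 2 rose, and with shRNA 2, 7 fell and 1 rose, in the authors' deposited tables. Their median log2 fold changes were -0.03 with shRNA 1 and -0.24 with shRNA 2. Over all genes tested, 14.8% were called lower and 9.80% higher with shRNA 1, and 18.1% lower and 10.9% higher with shRNA 2. The medians over all genes tested, beside which the lists below can also be set, were -0.03 and -0.0026. SWAP70, a GEF of B cells, was at -0.76 ± 0.20 (SE) with shRNA 1 and at -0.22 ± 0.19 with shRNA 2, where it was not called, in the authors' deposited tables. DOCK9, a CDC42 GEF, fell with both, at -0.68 ± 0.10 and -0.46 ± 0.10 with shRNA 1 and shRNA 2, and the RAS and Rac GEF SOS2 fell with shRNA 1 (-0.49 ± 0.18) but was not called with shRNA 2 (-0.33 ± 0.18), per the authors' deposited tables. ECT2, the GEF of cytokinesis, was at 0.21 ± 0.15 with shRNA 1, not called, and fell with shRNA 2 by 1.42 ± 0.16 on the log2 scale, in the authors' deposited tables. The proliferation markers MKI67 and TOP2A, chosen after their values were seen, were at -0.56 ± 0.27 and -0.42 ± 0.22 with shRNA 1, not called, and at -2.33 ± 0.27 and -1.68 ± 0.22 with shRNA 2, called lower, in the authors' deposited tables. Their part in the fall of ECT2 was not tested. FARP1 (0.10 ± 0.15 with shRNA 1, -0.95 ± 0.16 with shRNA 2) and SPATA13 (-0.24 ± 0.23 and -0.78 ± 0.23), a GEF also called ASEF2, were called lower with shRNA 2 and not with shRNA 1, in the authors' deposited tables.

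Inhibitors of Rac, 22 GAPs, dissociation inhibitors and CYRI proteins, moved both ways. Of 20 tested with shRNA 1, 4 rose and 3 fell, and of 21 tested with shRNA 2, 1 rose and 4 fell, with medians of -0.03 and -0.06 in the authors' deposited tables. Called shares of all genes tested were 9.80% higher and 14.8% lower with shRNA 1, and 10.9% higher and 18.1% lower with shRNA 2. The Rac GAP ARHGAP22 rose with shRNA 1 (1.58 ± 0.18, SE) and was at -0.04 ± 0.19 with shRNA 2, while ARHGAP17 rose with shRNA 1 (0.87 ± 0.13) and was at 0.26 ± 0.13, not called, with shRNA 2, per the authors' deposited tables. SRGAP3 rose with shRNA 1 (1.57 ± 0.46) and was not called with shRNA 2 (0.82 ± 0.47), and SRGAP2 fell with both (-0.33 ± 0.12 and -0.94 ± 0.13), in the authors' deposited tables. RACGAP1, the partner of ECT2 in cytokinesis, was at -0.40 ± 0.16 with shRNA 1, not called, and at -1.45 ± 0.16 with shRNA 2, called lower, in the authors' deposited tables. ARHGDIA, a dissociation inhibitor that holds Rac in the cytosol, rose with shRNA 1 (0.66 ± 0.08) and fell with shRNA 2 (-0.83 ± 0.08) in the authors' deposited tables.

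Among 34 effectors, 31 were tested with shRNA 1 (9 rose, 3 fell, median 0.10) and 32 with shRNA 2 (7 rose, 11 fell, median -0.12), per the authors' deposited tables. The shares over all genes tested were 9.80% higher and 14.8% lower with shRNA 1, and 10.9% higher and 18.1% lower with shRNA 2. WASF1, of the WAVE complex, rose with both (1.27 ± 0.24 and 0.85 ± 0.24, SE, with shRNA 1 and shRNA 2), as did the Arp2/3 subunit ARPC1A (0.59 ± 0.11 and 0.41 ± 0.11), in the authors' deposited tables. BRK1, a small WAVE complex subunit, rose with shRNA 1 (0.35 ± 0.12) and fell with shRNA 2 (-1.10 ± 0.12) in the authors' deposited tables. ABI2, also of that complex, fell with shRNA 1 (-0.50 ± 0.16) and was not called with shRNA 2 (-0.10 ± 0.16), and the kinase PAK4, not called with shRNA 1 (0.12 ± 0.20), was called lower with shRNA 2 (-1.19 ± 0.21) in the tables the authors deposited.

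Upstream of the exchange factors, 25 of 26 listed kinases, PI3-kinase genes, adaptors and receptors were matched. Of 22 tested with shRNA 1, 2 rose and 6 fell, and of 24 tested with shRNA 2, 6 rose and 5 fell, with medians of -0.19 and 0.19 in the authors' deposited tables. For all genes tested the shares were 9.80% higher and 14.8% lower with shRNA 1, and 10.9% higher and 18.1% lower with shRNA 2. SYK, a tyrosine kinase that phosphorylates VAV proteins, fell with both (-0.75 ± 0.11 and -0.64 ± 0.11, SE, with shRNA 1 and shRNA 2), and so did PIK3CB (-1.46 ± 0.16 and -0.47 ± 0.15) and the integrin subunit ITGA4 (-0.34 ± 0.09 and -0.47 ± 0.09), per the authors' deposited tables. PIK3CD, the PI3-kinase catalytic subunit of leukocytes, fell with shRNA 1 (-0.80 ± 0.27) and was at 0.57 ± 0.26, not called, with shRNA 2 in the authors' deposited tables.

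The 15 described partners of TIAM1 together with RAS genes gave 2 higher and 3 lower of 12 tested with shRNA 1, and 2 higher and 4 lower of 14 with shRNA 2, with medians of 0.14 and -0.26 in the authors' deposited tables. All genes tested gave 9.80% higher and 14.8% lower with shRNA 1, and 10.9% higher and 18.1% lower with shRNA 2. PRKCI, the atypical protein kinase C of the PAR polarity complex that TIAM1 joins, fell with both (-0.97 ± 0.14 and -0.72 ± 0.14, SE, with shRNA 1 and shRNA 2), and HRAS rose with both (0.98 ± 0.14 and 0.75 ± 0.14), per the authors' deposited tables. CD44, an adhesion receptor, rose with shRNA 1 (0.70 ± 0.08) and fell with shRNA 2 (-0.55 ± 0.08) in the authors' deposited tables.

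**Figure D4:**
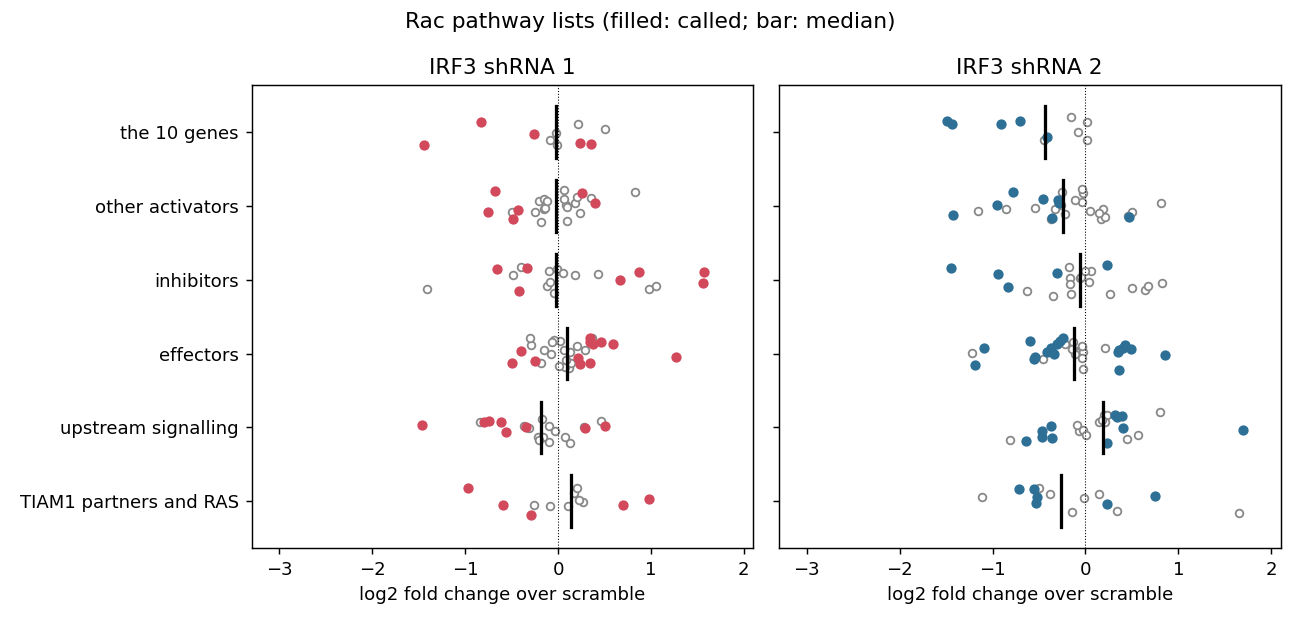
Log2 fold change over scramble of the tested genes in each list with IRF3 shRNA 1 (left) and IRF3 shRNA 2 (right), from the authors' deposited tables; filled points have an adjusted p below 0.05, open points do not, and black bars are list medians. The 10 genes have their median at -0.02 with shRNA 1 and at -0.43 with shRNA 2, where VAV2 at -1.49 is the lowest point.

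The calls of VAV2, DOCK8 and ELMO1 with shRNA 1 were close to the threshold and were lost when p-values were adjusted over all genes without the authors' filter on low counts. VAV2 and DOCK8 also lost the call with shRNA 1 when fold changes were recentred on the median gene. The call of VAV3 with shRNA 2 (adjusted p of 0.0154 by the authors' DESeq2 test) was lost at a threshold of 0.01.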

How the data were processed

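RNA sequencing covered 6 libraries of MM.1S cells, grouped by the hairpin in the labels. The submitters' processing notes name Salmon 0.12.0, DESeq2 1.24.0 and GRCh38. Settings, read length, annotation and strand are not given there. The values are 2 tables of comparisons deposited by the authors. Per the file headers, baseMean is a signal: the normalised count of a gene averaged over the libraries fitted. The log2 fold changes, SEs and Wald score (fold change over SE, held to 1.25e-07) are those deposited by the authors, as are the p-values and adjusted p-values, which are missing below means of 26.8 (shRNA 1) and 11.8 (shRNA 2). Calls are those of the authors' DESeq2 with adjusted p under 0.05. No count model was run, since no library's own value was available in the tables used here.

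Arm means, dispersion and arm variances were solved from the mean, fold changes and SEs. The coding as shRNA over scramble was checked on 1586 genes, whose dispersions solved from each table differed by a median absolute natural log ratio of 0.00881 as coded, 0.203 with the shRNA 2 table turned, 0.130 with the shRNA 1 table turned and 0.149 with both turned. The hairpins were compared by a two-sided z test, which divides the difference of fold changes by an SE that adds both squared SEs, adjusted by Benjamini-Hochberg over 17054 genes. These scripts were tested on simulated data. Scipy 1.17.1 and pandas 2.3.3 were used.

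All 33095 identifiers occur in GENCODE 29 (GRCh38), used for positions and exon lengths. Where a symbol had several identifiers, the 1 with the highest mean was taken. A further list of genes is not reported here. The 10 genes and all lists were chosen with earlier results of these data known. Named genes were the 10, IRF3, up to 3 called genes per list and comparison with the largest fold change at a mean of 50 or more, the 6 closest to TIAM1, genes overlapping member exons, and cell markers. Alternatives covered the threshold, a fold minimum, the filter on low genes, recentring, the SE of the difference, gene length and the distance measure.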

Additional observations from a re-analysis of the deposited data

Results flagged for a closer look

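For 12 of the 24 genes named from the Rac pathway lists, the change with shRNA 2 differed from that with shRNA 1 in a z test on the authors' deposited fold changes, with Benjamini-Hochberg adjusted p from 1.12e-37 to 0.00516. Over all 17054 genes tested, 19.6% differed in this test. Without the shared scramble variance in the SE, 14 of the 24 genes and 33.2% of all genes differed. The differences, shRNA 2 minus shRNA 1 on the log2 scale, were -1.63 for ECT2, -1.62 for ARHGAP22, -1.50 for ARHGDIA, -1.44 for BRK1, -1.32 for PAK4, -1.26 for CD44, -1.06 for RACGAP1, -1.05 for FARP1, -0.61 for ARHGAP17 and -0.61 for SRGAP2. They were positive for PIK3CD (1.37) and PIK3CB (0.99). The genes had been named for the size of a change in either of the 2 comparisons, and such a choice itself favours a difference between the hairpins. The count of 12 of 24 can therefore not be weighed against the share over all genes. Differences of the 10 members are given above as values without a test, because both comparisons were known when they were chosen.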

How the results depend on the processing

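Of the members called with shRNA 1, the 2 higher ones became 1 at an adjusted p below 0.01, 0 with a log2 fold change of at least 0.5, and 1 without the filter on low genes. The 3 lower ones became 1 at the stricter threshold, 1 without the filter and 1 on recentring, and that gene was TIAM1. With shRNA 2, the 5 lower members became 4 at an adjusted p below 0.01, where VAV3 dropped out. They became 4 with a log2 fold change of at least 0.5, where RAC1 dropped out. The other alternatives kept all 5, and none of the 10 became higher under any of the 6 alternatives. Over the pathway lists together, the fold minimum left 9 of 19 higher and 10 of 19 lower genes with shRNA 1, and 3 of 17 higher and 16 of 31 lower with shRNA 2, where the stricter threshold left 10 higher. The count of genes that differ between hairpins moved to 5657, against 3349, when the shared scramble variance was taken out of the SE. Recentring turned the uncalled values of DOCK2 (0.026) and PREX1 (0.023) with shRNA 1. TIAM1 kept its call and direction in both comparisons under every alternative run. At a log2 fold change of -1.44 with either hairpin, these alternatives could hardly change its call, so they are no check of it. Scaling the distance to TIAM1 by its SEs is no check of the closest genes, because those SEs are nearly equal and the order could hardly change. No paired analysis was possible because the tables hold no value of a single library, and for the same reason no library was left out in turn. Precision falls with the level, from an SE of 0.07 for RAC2 to 0.49 for PREX1 with shRNA 1.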

Other observations

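The genes around TIAM1 on chromosome 21 were looked at as well. Within 500 kb of it, a window chosen after the values were seen, 4 other genes had a mean of 50 or more. The lincRNA AP000251.1 (ENSG00000237594, chromosome 21, 31559245 to 31560487, plus strand), which starts on the opposite strand inside the TIAM1 start window, had log2 fold changes of 0.30 ± 0.34 (SE) with shRNA 1, not called, and -1.39 ± 0.37 with shRNA 2, called lower, in the authors' deposited tables. SOD1, the superoxide dismutase gene 99.6 kb away, was at 0.09 ± 0.09 with shRNA 1, not called, and at -0.24 ± 0.09 with shRNA 2, called lower, in the authors' deposited tables. SCAF4 was at -0.01 ± 0.11 with shRNA 1, not called, and at -0.29 ± 0.11 with shRNA 2, called lower, per the authors' deposited tables. The kinase gene HUNK was at 0.02 ± 0.42 with shRNA 1, not called, and at -2.01 ± 0.44 with shRNA 2, called lower, in the authors' deposited tables. TIAM1 was the 1 gene of these 5 that was called with shRNA 1, where 24.6% of all genes tested were called. With shRNA 2 all 5 were called lower, against 18.1% of all genes tested. TIAM1 had been chosen with its change known, so these counts do not set it apart from its neighbours.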
